A study of Mus musculus with 3 samples.

Results

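The laminins and integrins measured here are the genes whose symbols name a laminin chain (Lama, Lamb or Lamc and a number) or an integrin subunit (Itga or Itgb and a number or letter). There were 37 of them among the 32285 genes of one deposited table and 34 among the 16157 genes of the other: 11 laminin chains, 18 integrin alpha subunits and 8 integrin beta subunits over both tables. Itga11, Itgad and Lamb3 were listed in the second table alone. The cells came from islets of Langerhans of mice with the alleles Ngn3-CreERT and R26-CAG-TdTomato, taken 10 days after tamoxifen. In these mice a Cre recombinase expressed from Ngn3 (Neurog3), the endocrine progenitor gene, becomes active with tamoxifen and turns on the red protein TdTomato from the ROSA26 locus, so the label depends on where and when that driver is active. All 3 samples (6 mice in all, replicates 2 and 3 being pools of 2 mice) carried both alleles and had tamoxifen, and no sample without them was analysed here. The cells were released with collagenase and a second enzyme mix before about 10000 of them were loaded per channel of a 10x Genomics 3′ single-cell system.

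Laminins are heterotrimers of an alpha, a beta and a gamma chain that polymerise into the sheet of the basement membrane. Integrins are alpha-beta heterodimers that hold cells to that sheet and to other matrix, and the alpha chain largely sets the ligand: the subunits of Itga3, Itga6 and Itga7 bind laminins, those of Itga1, Itga2, Itga10 and Itga11 bind collagens (Itga1 also laminins), those of Itga5, Itga8, Itgav and Itga2b recognise the RGD sequence of fibronectin, vitronectin and related proteins, and Itgal, Itgam, Itgax, Itgad and Itgae encode leukocyte integrins. In mouse islets, beta cells are known to lie against capillaries whose endothelial cells lay down the vascular basement membrane.

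Replicate 1 (library 1 below) held 1146 cells with a median of 18140 unique molecular identifiers (UMIs, each marking 1 captured RNA molecule), and replicates 2 and 3, deposited in 1 joint table that no label splits, held 13042 distinct cells with a median of 13099.5. The joint table counts as 1 library, so each class of cells has n = 2 libraries, and p-values measure the spread between these 2 only. The table falls into 3 barcode blocks. Between 0 and 6 barcodes were shared by any pair of blocks or by a block and library 1. Endocrine cells were classed by their hormone RNA, which gave 449 and 6220 beta (insulin), 121 and 988 alpha (Gcg), 61 and 565 delta (Sst) and 13 and 161 PP cells (Ppy) in library 1 and the joint table. Clusters with fixed markers gave 26 and 683 endothelial, 12 and 175 mural (pericytes and smooth muscle), 32 and 88 stromal and 43 and 233 macrophage cells. In these non-endocrine classes 9 to 13 markers of each list of 10 to 13 were found in at least 20% of the cells of every cluster used. Laminin and integrin genes took no part in forming the classes. Levels are given as CPM, here UMIs per 1000000 UMIs of a class after leaving out hormone and mitochondrial RNA, with exact 95% Poisson intervals that cover counting error only. The mural cells of library 1 summed to 57514 such UMIs, so that a gene at 0 there could have had up to 52.2 CPM (3 UMIs).

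Laminin RNA came from the cells around and between the endocrine cells. All chains together summed to 986 and 960.4 CPM in endothelial cells of library 1 and the joint table, 730.3 and 600.2 in mural cells and 484 and 671 in stromal cells. The sums were 25.2 and 22.7 in beta cells, 41.3 and 38.2 in alpha cells, 29.4 and 27.2 in delta cells and 3.89 and 5.54 in macrophages. The endothelial, mural and stromal values did not overlap those of the endocrine classes in either table.

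**Figure D1:**
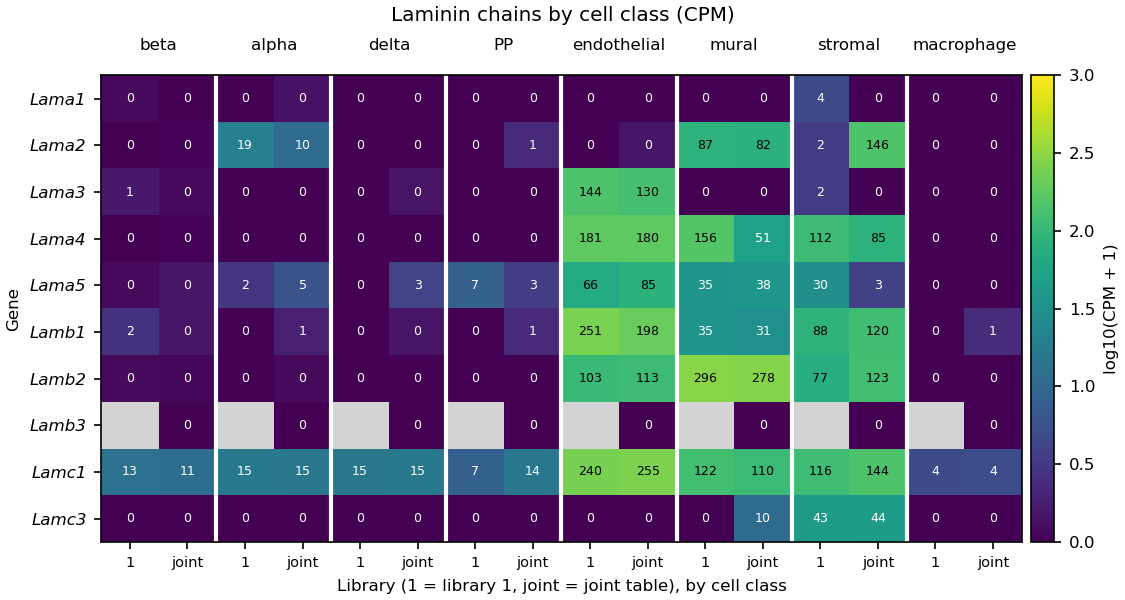
Levels of laminin chains (rows) in 8 cell classes (columns, library 1 and joint table side by side), printed as CPM and coloured on a log10 scale, with grey where a gene is not listed. Endothelial, mural and stromal columns hold the high values, Lama3 is at 144 and 129.5 in endothelial cells, and Lama2 is at 19.2 and 10.2 in alpha cells.

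Among the alpha chains, which carry the integrin-binding end of the trimer, Lama4 (chromosome 10, 38965515 to 39110188, plus strand, GRCm38) was at 181 (95% interval 134 to 239) and 180.3 (162 to 199.5) CPM in endothelial cells. It was at 156 and 51.4 in mural cells and at 112 and 84.9 in stromal cells. Beta cells had 0 and 3 Lama4 UMIs, which puts the endothelial level at least 305-fold higher in library 1 and 2141-fold higher in the joint table (counting interval 727 to 10428). Lama4 is thus shared by the 3 non-endocrine matrix-bearing classes, and it was at 0 in alpha and delta cells of both tables.

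Lama3, an alpha chain best known from epithelial basement membranes, was at 144 (102 to 197) and 129.5 (114 to 146) CPM in endothelial cells and at 0 in mural cells of both tables. Its UMIs were 88.6% and 97.1% endothelial among the 8 classes, which held 3.43% and 7.49% of the cells. Lama5, found in many adult basement membranes, was at 66.5 and 84.6 in endothelial cells and at 34.8 and 37.7 in mural cells, while the stromal values of 29.6 and 2.93 did not match between tables. Lama1, typical of embryonic membranes, had 4 UMIs in the 8 classes of library 1 and 2 in those of the joint table.

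Lama2, the alpha chain of muscle and nerve membranes, had a different set of sources. Mural cells were at 86.9 (28.2 to 203) and 82.3 (52.7 to 122) CPM, and stromal cells at 2.37 in library 1 against 146 (109 to 193) in the joint table. Alpha cells were at 19.2 (11.7 to 29.7) and 10.2 (7.53 to 13.5), with 9.68, 8.37 and 12.5 in the 3 blocks. Beta cells had 0 and 2 Lama2 UMIs and delta cells 0 in both tables. The alpha cell level was at least 32.3-fold that of beta cells in library 1 and 181-fold (47.6 to 1539) in the joint table. With the spread of this gene over all classes, limma (trend, on log2 of the level plus 5 CPM, Benjamini-Hochberg over all genes tested) gave a log2 difference of 1.93 ± 0.90 (SE, adjusted p = 0.31), which did not pass. It passed with edgeR and DESeq2 on the summed UMIs, and with limma when the stromal class of the joint table was limited as described further on.

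Of the beta chains, Lamb1 was highest in endothelial cells, at 251 (195 to 318) and 198 (179 to 218) CPM, with 87.5 and 120.1 in stromal and 34.8 and 30.9 in mural cells. Lamb2, the chain of mature vascular, muscle and synaptic membranes, was highest in mural cells, at 296 (172 to 473) and 278 (221 to 345). Endothelial cells were at 103 and 113 and stromal cells at 76.9 and 123. Lamb2 thus made up 89.5% and 90.0% of the beta chain UMIs of mural cells and 29.2% and 36.2% of those of endothelial cells, where UMIs count captured 3′ ends and do not scale with transcript length. Endocrine classes held at most 1.78 CPM of either chain.

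The gamma chain of most laminins, Lamc1, was at 240.0 and 255 CPM in endothelial, 122 and 109.7 in mural and 116 and 144 in stromal cells. It was the laminin chain with the most even endocrine presence, at 12.7 and 11.3 in beta, 15.4 and 14.7 in alpha and 14.7 and 15.4 in delta cells. Macrophages lay below these, at 3.89 and 4.16. Lamc3 was at 42.6 (29.8 to 58.9) and 43.9 (24.6 to 72.5) in stromal cells, at 0 and 10.3 in mural cells and at 0 in endothelial and endocrine cells.

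Because beta cells are many, the share of a chain's UMIs that each class held depended on cell numbers as well as levels. Endothelial cells held 32.03% and 88.8% of the Lama4 UMIs of the 8 classes, and stromal cells 62.1% and 6.90%. Beta cells held 24.7% and 35.6% of the Lamc1 UMIs at their low level. Alpha cells held 20 of the 27 Lama2 UMIs in library 1 and 49 of the 127 in the joint table. The class that held most UMIs was stromal in library 1 and endothelial in the joint table for Lama4, Lama5, Lamb1, Lamb2 and Lamc1, with 32 stromal cells of high depth (median 25720 UMIs) in library 1 and 88 of low depth (median 2770.5) in the joint table.

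**Figure D2:**
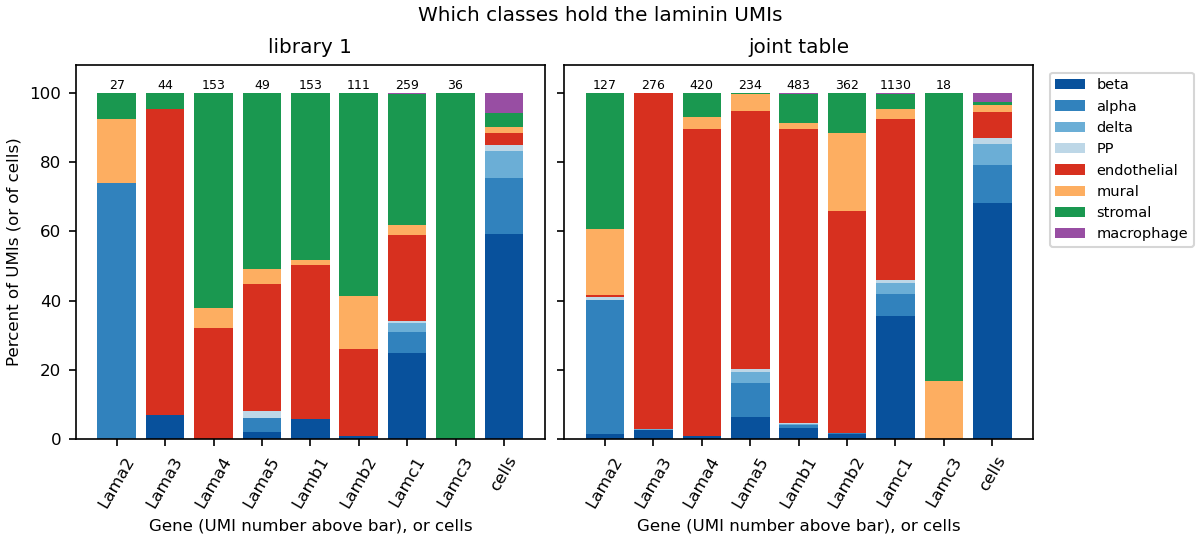
Percent of the UMIs of laminin chains held by each of 8 cell classes (stacked bars, number of UMIs above), and percent of cells in the last bar, for library 1 (left) and the joint table (right). Endothelial cells hold 88.6% and 97.1% of the Lama3 UMIs, and the stromal share of Lama4 is 62.1% in library 1 and 6.90% in the joint table.

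Against endocrine cells (the mean of the beta, alpha and delta columns), 18 of the 29 members that passed the filter of 10 CPM in at least 2 of 16 class columns were called in endothelial cells by limma at an adjusted p under 0.05, 15 higher and 3 lower. Of all 12270 genes tested, 43.6% were called, 16.2% higher and 27.4% lower. The median log2 difference was 0.94 over the members and −0.25 over all genes. Members enter the fit through the class where they are high, so these counts describe the set and do not support it. Of the 9 laminin chains tested, 6 rose. Lamb1 rose by 5.36 ± 0.29 (SE, adjusted p = 5.6e-08) and Lama4 by 5.21 ± 0.35 (3.6e-07), Lama3 by 4.77 ± 0.18 and Lamc1 by 3.73 ± 0.24 on the log2 scale. The 2 tables gave 5.53 and 5.19 for Lamb1. Where endocrine cells are near 0, the log2 values depend on the 5 CPM added and are not bounds.

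In mural cells 17 of the 29 were called against endocrine cells, 14 higher and 3 lower, where 47.3% of all genes were called (14.6% higher, 32.8% lower). The member median was 0.81 beside −0.36 over all genes. Of the laminin chains 7 rose: Lamb2 led with 5.84 ± 0.28 (adjusted p = 5e-08), followed by Lama4 with 4.25 ± 0.35 and Lama2 with 3.51 ± 0.74. Lamc3 passed with 0.81 ± 0.29 but rests on 3 UMIs in the joint table and 0 in library 1. Among the lower members, Itga3 and Itgb8 had 0 UMIs in the mural cells of library 1, where the depth could not show their endocrine levels.

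In stromal cells 17 of the 29 were called against endocrine cells, all higher, where 44.4% of all genes were called (15.2% higher, 29.2% lower). The member median was 1.34 beside −0.37. The 7 laminin chains that rose included Lama4 (4.36 ± 0.35), Lamb2 (4.33 ± 0.28, adjusted p = 4e-07), Lamb1 (4.28 ± 0.29) and Lamc3 (3.27 ± 0.29). The stromal cells of the 2 tables were not the same kind: those of library 1 led with Dcn, C3 and Saa3, as did a joint cluster of 11 cells (Saa3, Timp1, C3), while the other 77 joint cells led with Dcn and Col3a1. Lama2 was at 266 CPM in those 77 cells, 0 in the 11 and 2.37 in library 1. With the 11 cells alone as the joint stromal class, a setting added after the data were seen, 15 members were called (5707 of all 12287 genes). The Lama2 difference turned to −0.37 from 2.09 ± 0.74 (adjusted p = 0.21 from 0.038). Itga8 and Itga1 also followed the 77 cells, at 95.7 and 229 CPM, against 0 and 19.6 in the 11 and 0 and 35.5 in library 1. Other members followed the 11 cells, as in library 1: Itga5 was at 84.7 CPM there (13 UMIs) against 5.32 (1 UMI) in the 77, and Itga9 and Itgb3 had 5 UMIs each in the 11 and 0 in the 77. Itgb5 was at 175 in the 77 cells and 26.1 in the 11, and its stromal call did not pass with the 11 alone (0.48, adjusted p = 0.41).

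Mural and endothelial cells, which share the capillary basement membrane, differed in 14 of the 29 members, 6 higher and 8 lower in mural cells, where 21.0% of all genes were called (8.88% higher, 12.2% lower). The members' median was 0.00 beside −0.07 over all genes. On the ligand side, mural cells were higher for Lama2 (log2 difference 4.10 ± 0.90, adjusted p = 0.0067) and Lamb2 (1.37 ± 0.34, 0.013). They were lower for Lama3 (−4.82 ± 0.22, 2.6e-08), Lamb1 (−2.59 ± 0.35, 2.2e-04) and Lamc1 (−1.06 ± 0.29, 0.021). Over the limma, edgeR and DESeq2 alternatives given at the end, the adjusted p reached 0.11 for Lamb2 and 0.060 for Lamc1. Lama4 and Lama5 did not pass. The endothelial Lama4 level was 1.16-fold (counting interval 0.562 to 2.68) the mural one in library 1 and 3.50-fold (2.10 to 6.33) in the joint table. The mural level of Lama3 was 0 against 39 and 268 endothelial UMIs, at least 2.76-fold and 12.6-fold lower.

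**Figure D3:**
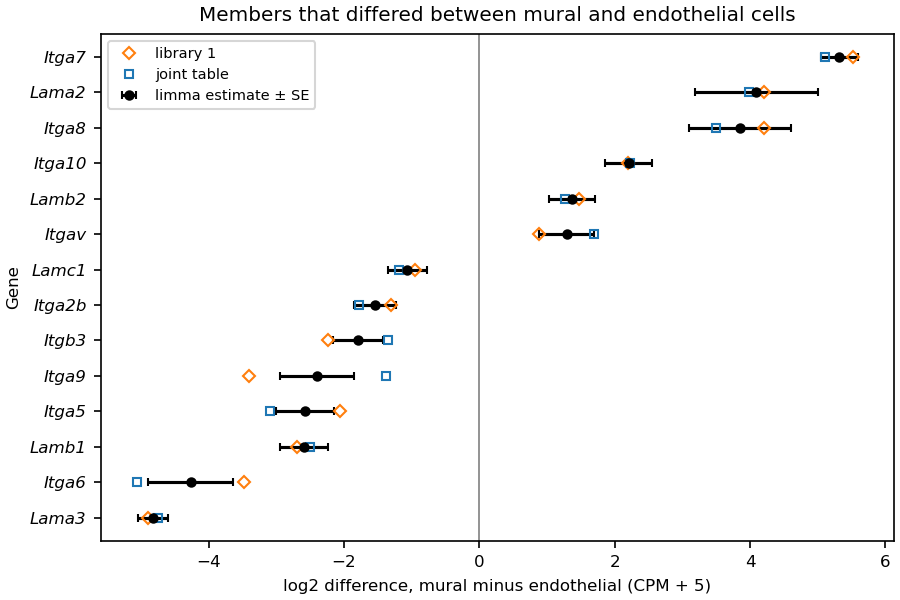
The 14 members that differed between mural and endothelial cells (adjusted p under 0.05), as log2 difference of CPM + 5, mural minus endothelial: limma estimate with its SE (black), library 1 (orange diamonds) and joint table (blue squares). Itga7 at 5.32 and Lama3 at −4.82 lie at the ends, and both tables fall on the same side of 0 for every gene drawn. Genes were drawn for passing a fit to these same tables, so that agreement is no separate check.

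Receptor subunits divided the classes as well. Against endocrine cells, 9 integrin subunits rose in endothelial cells: Itga1, Itga5 (4.01 ± 0.35), Itga9 (3.11 ± 0.45), Itga6 (3.09 ± 0.51), Itgb4 (2.66 ± 0.46), Itgb3 (1.78 ± 0.30), Itgb5 (1.53 ± 0.47), Itgb1 (1.5 ± 0.23) and Itga2b (0.94 ± 0.26). Itgb8 fell by 2.16 ± 0.44 (log2, adjusted p = 0.0016). Itgav fell by 1.01 ± 0.34 (adjusted p = 0.029), a call that did not pass with centred columns (−0.83) or with CPM over all UMIs (−0.08). In mural cells 7 rose: Itga1, Itga7, Itga8 (3.85 ± 0.62), Itgb5 (3.21 ± 0.47), Itga10 (2.55 ± 0.28), Itgb1 (2.10 ± 0.23) and Itga5 (1.44 ± 0.35). In stromal cells 10 rose, with Itga1 (3.68 ± 0.46), Itga5 (2.92 ± 0.35), Itga7 (2.22 ± 0.22), Itga9 (1.97 ± 0.45), Itgb3 (1.83 ± 0.30) and Itga8 (1.76 ± 0.62) ahead of Itgb4, Itgb5, Itgav and Itgb1, which rose by 0.86 to 1.67. Stromal Itgb4 rests mainly on library 1, with 23 UMIs there against 1 in the 11 Saa3-led joint cells and 0 in the 77 (log2 difference 2.69 and 0.66 by table). The laminin receptor subunits thus split by class, Itga6 with endothelial and Itga7 with mural cells.

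Itga1 (chromosome 13, 114953096 to 115101964, minus strand) was the alpha subunit shared by mural and endothelial cells. It was at 782 (571 to 1047) and 789 (690.1 to 898) CPM in mural and at 458 (381 to 546) and 639 (605 to 674) in endothelial cells, and at most 1.58 in beta, alpha and delta cells. The log2 differences from endocrine cells were 7.07 ± 0.46 and 6.54 ± 0.46 (adjusted p = 3.8e-07 and 4.8e-07). After thinning each cell to 2000 UMIs, 50% and 66.7% of mural, 64.0% and 60.7% of endothelial and 0% and 0.0804% of beta cells had an Itga1 UMI. The annotation places the protein-coding genes Pelo and Gm49395 on the same strand within this locus, and how the counting treated reads shared by overlapping genes is not given in the sources used here.

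Itga7, a laminin receptor of muscle, was at 226 (120.4 to 387) and 168 (124 to 222) CPM in mural cells and at 0 UMIs in endothelial cells of both tables, at least 20.4-fold and 116-fold lower. Its log2 difference between them was 5.32 ± 0.27 (adjusted p = 6.2e-08 by limma). Over the limma, edgeR and DESeq2 alternatives given at the end, its adjusted p reached 0.36. Stromal cells had 14.2 and 23.4. Itga8, a receptor of nephronectin and other RGD proteins, was at 86.9 and 51.4 in mural cells and at 0 in endothelial cells (3.85 ± 0.76, 0.0032). Its adjusted p reached 0.48 over the same alternatives. Itga10, a collagen receptor, reached 34.8 and 27.4 in mural cells, on 2 and 8 UMIs, and overlaps the gene model Gm42957 on its strand (2.21 ± 0.34, 6.1e-04). Itgav was the other integrin subunit higher in mural cells, at 52.2 (3 UMIs) and 123 against 25.8 and 34.8 in endothelial cells (1.29 ± 0.41, 0.044), a call that did not pass with a pseudocount of 1 (0.059), with no filter on low values (0.063) or without the library block (0.077).

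Itga6 (chromosome 2, 71745616 to 71858416, plus strand), the laminin receptor subunit of endothelium and many epithelia, stood on the endothelial side with 244 (188 to 310) and 275 (253 to 299) CPM. Mural cells had 17.4 and 3.43, on 1 UMI in each table (log2 difference −4.26 ± 0.62, adjusted p = 3.8e-04). Itga5, the fibronectin receptor, was at 88.6 and 66.7 in endothelial cells and at 17.4 and 3.43 in mural cells, with 1 UMI in each table again. It was also seen in macrophages and in stromal cells, in the latter at 27.2 and 41.0 (13 of the 14 joint UMIs in the 11 Saa3-led cells). In each of the beta, alpha and delta classes it had 0 or 1 UMI. Itga9 (48.0 and 52.7 in endothelial cells), Itgb3 (18.5 and 16.4) and Itga2b (7.39 and 12.1) completed the members called lower in mural cells. Each had 0 UMIs in the mural cells of library 1, where the depth could not show their endothelial levels. Over the limma, edgeR and DESeq2 alternatives their adjusted p reached 0.084, 0.32 and 0.23. Itgb4, the partner of Itga6 in hemidesmosomes, was at 25.9 and 27.6 in endothelial cells against 17.4 (1 UMI) and 0 in mural cells (adjusted p = 0.071).

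Itgb1 (chromosome 8, 128685654 to 128733200, plus strand), which pairs with most of these alpha subunits, was present in all 8 classes of both tables. It was at 765 and 669 CPM in mural, 432 and 514 in endothelial, 279 and 325 in stromal and 253 and 126 in macrophage cells. Among endocrine cells it was at 123 and 138 in beta, 138 and 159.6 in alpha, 217 and 235 in delta and 145 and 212 in PP cells. Delta cells were above beta cells by 1.76-fold (counting interval 1.42 to 2.17) and 1.71-fold (1.56 to 1.87), a log2 difference of 0.77 ± 0.29 that did not pass over all genes (adjusted p = 0.18). It passed with edgeR, with DESeq2 and with CPM over all UMIs.

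**Figure D4:**
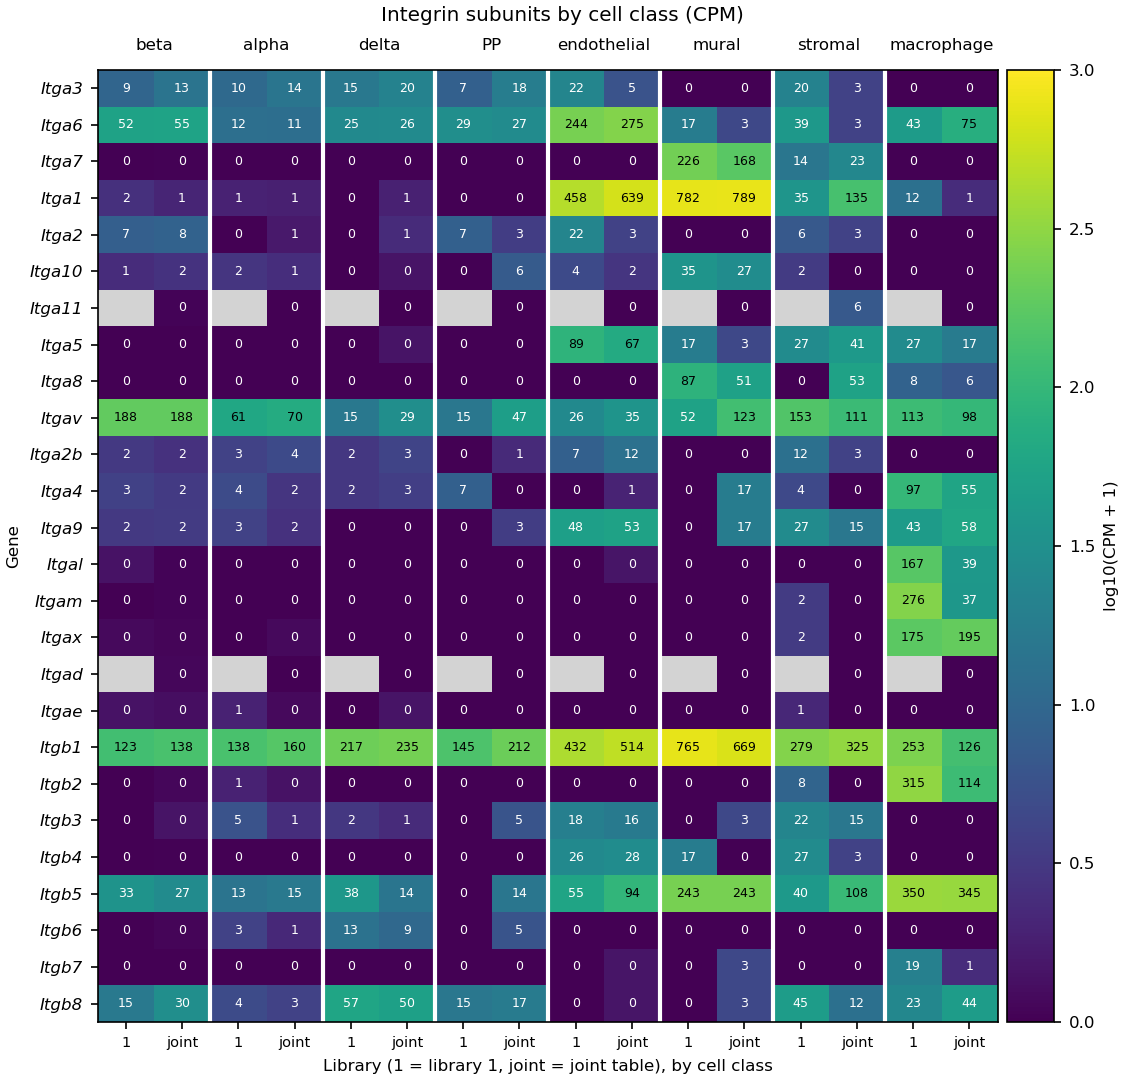
Levels of the 26 integrin subunits (rows) in 8 cell classes (columns, library 1 and joint table side by side), printed as CPM and coloured on a log10 scale, with grey where a gene is not listed. Itgb1 is seen in all columns, Itga7 is at 226 and 168 in mural cells, and Itgax and Itgb2 stand out in macrophages.

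Among the endocrine classes, beta cells had the highest level of Itgav (chromosome 2, 83724397 to 83806916, plus strand). Its product pairs with Itgb1, Itgb3, Itgb5, Itgb6 or Itgb8 and binds RGD proteins, latent TGF-beta among them. Beta cells were at 188 CPM in both tables (intervals 176 to 199.9 and 183 to 192), alpha cells at 60.5 and 69.8, PP cells at 14.5 and 47.0 and delta cells at 14.7 (5.92 to 30.3) and 29.0 (22.4 to 36.9). In the 3 blocks beta cells held 178, 186 and 203, alpha cells 71.1, 72.6 and 65.4 and delta cells 21.3, 46.8 and 25.3, with no overlap between these classes. The beta level was 12.7-fold (6.16 to 31.8) and 6.47-fold (5.08 to 8.38) that of delta cells.

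Itgav was the 1 member of 29 called between delta and beta cells, lower in delta cells by limma (log2 difference −2.89 ± 0.41, adjusted p = 0.0010), where 6.29% of all genes were called (3.27% higher, 3.02% lower). It was not called between alpha and beta cells (−1.46 ± 0.41, adjusted p = 0.056). In that comparison 0 of 29 members passed limma, where 7.25% of all genes were called (2.65% higher, 4.6% lower). An unadjusted p under 0.05 was found for 3 members and for 2065 of all 12270 genes. With edgeR and DESeq2 6 members each passed, where 2768 and 2417 of the 12270 genes did. With limma and the joint stromal class limited to the 11 Saa3-led cells 3 members passed, where 873 of 12287 genes did. The median log2 difference from beta cells was −0.012 over the members and −0.036 over all genes for delta cells, and −0.0040 and −0.14 for alpha cells. After thinning to 2000 UMIs, 8.72% and 10.2% of beta cells had an Itgav UMI, with 7.63% and 7.57% of alpha and 3.28% and 3.36% of delta cells. Thinning includes hormone RNA, which filled most of the UMIs of a beta cell. Endothelial cells, at 4.0% and 6.26%, lay between the delta and alpha cells. The share of cells thus differed less than the level did.

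Itgb8, the subunit that pairs with Itgav alone, had another order. Delta cells were at 56.8 (37.4 to 82.6) and 49.6 (40.9 to 59.7) CPM, beta cells at 15.4 and 29.7 and alpha cells at 3.84 and 2.91. The delta level was 14.8-fold and 17.1-fold that of alpha cells and 3.68-fold and 1.67-fold that of beta cells. In the 3 blocks delta cells held 52.4, 46.8 and 47.0, beta cells 30.9, 29.6 and 28.1 and alpha cells 4.21, 0.93 and 2.20. By limma neither difference from beta cells passed (delta 1.12 ± 0.53, adjusted p = 0.35, and alpha −1.67 ± 0.53, adjusted p = 0.093), while edgeR called both and DESeq2 that of alpha cells. Delta cells thus had the highest Itgb8 and the lowest Itgav of the 3 classes in each table.

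Itgb6, another Itgav partner known from epithelia, was under the filter of the fit. Delta cells were at 12.6 (4.63 to 27.5) and 9.22 (5.71 to 14.1) CPM on 6 and 21 UMIs, beta cells at 0 and 0.112, and alpha cells at 2.88 and 1.25. With no filter on low values limma called Itgb6 between delta and beta cells, at 1.65 with an adjusted p of 0.0040. Itgb5, a vitronectin receptor subunit, was at 33.5 and 27.1 in beta cells, with alpha cells at 13.5 and 15.4. Its delta levels of 37.9 and 13.6 lay on different sides of beta cells in the 2 tables.

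The laminin receptors of endocrine cells were Itga6 and Itga3. Itga6 was at 52.5 (46.4 to 59.2) and 54.6 (52.2 to 57.1) CPM in beta cells, 25.2 and 26.4 in delta, 29.0 and 26.7 in PP and 11.5 and 11.2 in alpha cells. Beta cells were 4.55-fold (2.56 to 8.92) and 4.87-fold (3.71 to 6.5) above alpha cells, and endothelial cells 4.64-fold and 5.04-fold above beta cells. As for Itgav, the gap between beta and alpha cells was smaller over all UMIs. The alpha against beta difference in Itga6 was −1.84 ± 0.62 (adjusted p = 0.12 by limma) and passed with edgeR and DESeq2. Itga3 was at 8.52 and 13.1 in beta, 9.61 and 13.7 in alpha and 14.7 and 20.2 in delta cells, and at 0 UMIs in mural cells and macrophages of both tables. Itga2, a collagen receptor subunit under the filter, was at 7.13 and 7.66 in beta cells and at 0 and 0.623 in alpha cells.

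**Figure D5:**
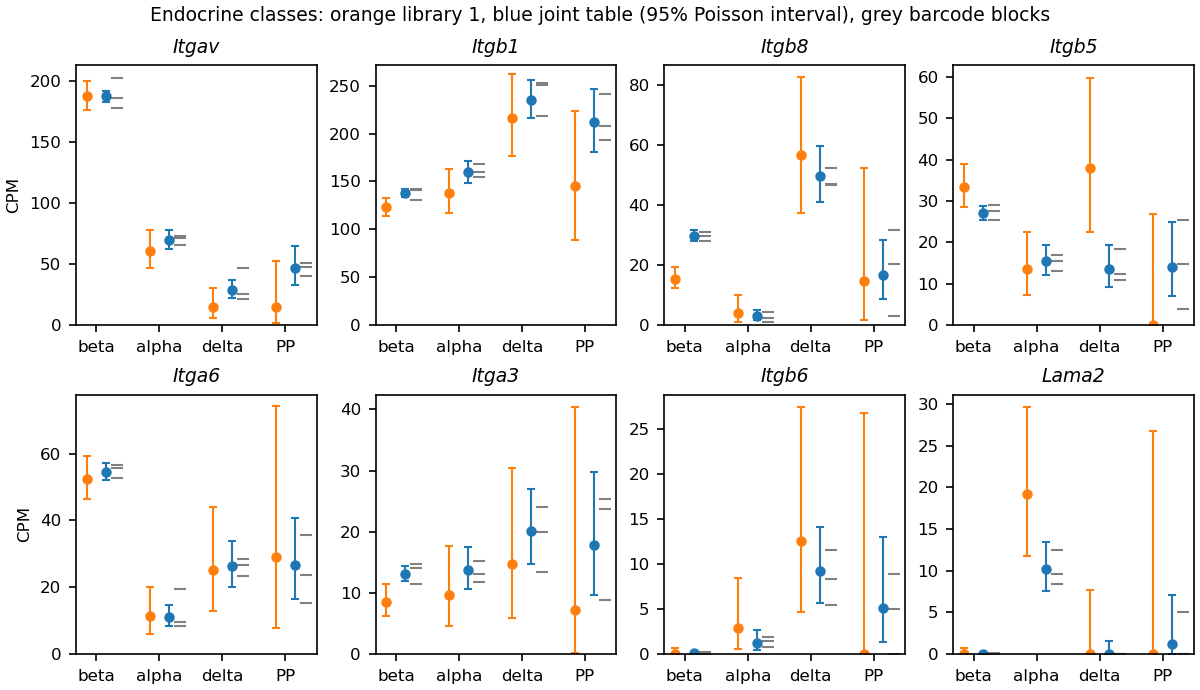
CPM of 8 members in beta, alpha, delta and PP cells: library 1 (orange) and joint table (blue) with exact 95% Poisson intervals, and the 3 barcode blocks of the joint table (grey dashes). Itgav is at 188 in beta cells of both tables and at 14.7 and 29.0 in delta cells, and Lama2 stands above 0 in alpha cells.

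Macrophages differed from endocrine cells in 11 of the 29 members, 8 higher and 3 lower, where 55.5% of all genes were called (12.3% higher, 43.2% lower). The members' median was 0.03 beside −0.67 over all genes. With columns centred on their median the members split into 15 higher and 1 lower, beside 2563 and 2568 of all 12270 genes. With CPM over all UMIs they split into 12 and 2, beside 2671 and 2428 of all genes. All 5 leukocyte integrin subunits tested were among the higher. As such members enter the fit through the class where they are high, this count describes the set and does not support it. Itgax, the subunit of the dendritic cell and macrophage integrin CD11c, was at 175 (128 to 234) and 195 (164 to 230.4) CPM (log2 difference 5.22 ± 0.19, adjusted p = 1.4e-09). Itgb2, the shared beta subunit of leukocytes, was at 315 and 114 (5.22 ± 0.34), Itgam (CD11b) at 276 and 37.4 (4.45 ± 0.45), Itgal (CD11a) at 167 and 38.8 and Itga4 at 97.3 and 55.4. Over the limma, edgeR and DESeq2 alternatives the adjusted p reached 0.069 for Itgb2, 0.061 for Itgam and 0.083 for Itgal. It stayed at or under 0.038 for Itgax and 0.0055 for Itga4. Itgb5 at 350.4 and 345, Itga9 at 42.8 and 58.2 and Itga5 (2.38 ± 0.35, on 7 UMIs in library 1) also rose. Itga3 and Lamc1 were among those that fell, of which Lamc1 did not pass under either scaling (−0.43 and −0.42) nor Itga3 with centred columns (−1.20).

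Itgax, Itgb5 and Itga9 had like levels in both tables, while Itgam, Itgal and Itgb2 were higher in library 1. The joint table held a further cluster of 119 cells, left unnamed, led by Fn1, Ccl9 and Lyz2, with Itgam at 396 (329.9 to 472) and Itgb2 at 510.5 (435 to 596). Itgam was 10.6-fold (6.95 to 16.7) higher there than in the joint macrophages and Itgax 0.682-fold (0.471 to 0.968). Fn1 was at 3831 CPM in the macrophages of library 1 and at 0 in those of the joint table. What part cells of that kind had in the library 1 levels was not tested. A smaller unnamed cluster of 29 cells, led by S100a9 and S100a8, had Itgam at 276, Itgb2 at 322 and Itgal at 253 on 11 to 14 UMIs.

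Itgam and Itgax, which among the 8 classes were highest in macrophages, lie side by side on chromosome 7 (128062640 to 128118491 and 128129547 to 128150657, both plus strand), with Itgad following at 128154376. The 250 bases before each start are printed with those of Itgav and Itgb1, members seen in all 8 classes, to show how the windows differ in CG dinucleotides, given in capitals. The windows come from RefSeq (GRCm38.p6), 5′ to 3′, at chr7:128062390-128062639, chr7:128129300-128129549, chr2:83724147-83724396 and chr8:128685404-128685653, all on the plus strand.
Itgam: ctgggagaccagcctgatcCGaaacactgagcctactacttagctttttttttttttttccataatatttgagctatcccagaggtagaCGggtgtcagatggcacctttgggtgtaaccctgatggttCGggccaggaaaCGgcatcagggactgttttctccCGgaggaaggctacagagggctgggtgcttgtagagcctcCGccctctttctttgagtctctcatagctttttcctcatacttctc
Itgax: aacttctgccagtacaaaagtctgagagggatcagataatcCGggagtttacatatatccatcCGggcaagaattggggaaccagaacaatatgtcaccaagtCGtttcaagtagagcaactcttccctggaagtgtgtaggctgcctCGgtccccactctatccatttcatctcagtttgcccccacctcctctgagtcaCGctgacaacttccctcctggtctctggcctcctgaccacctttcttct
Itgav: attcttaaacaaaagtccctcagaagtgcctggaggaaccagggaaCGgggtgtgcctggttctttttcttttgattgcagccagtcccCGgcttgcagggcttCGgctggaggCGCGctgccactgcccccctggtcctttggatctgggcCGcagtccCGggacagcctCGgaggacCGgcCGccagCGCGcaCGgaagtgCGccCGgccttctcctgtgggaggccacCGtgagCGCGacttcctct
Itgb1: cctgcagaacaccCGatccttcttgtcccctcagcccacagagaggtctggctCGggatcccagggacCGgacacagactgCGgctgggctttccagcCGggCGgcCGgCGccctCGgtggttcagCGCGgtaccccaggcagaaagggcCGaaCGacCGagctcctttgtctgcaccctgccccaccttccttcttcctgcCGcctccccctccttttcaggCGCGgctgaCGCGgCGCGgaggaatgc

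The windows of Itgam and Itgax hold 6 and 5 CGs and those of Itgav and Itgb1 18 and 21. The median over 32851 RefSeq promoter windows of this length is 6, and 21.7% of them hold at least 18 and 16.3% at least 21. Both strands read the same for CG. The counts describe these letters alone, and 23 of the 37 members had a window. The muscle and nerve chain Lama2 had a window with 0 CGs, a count shared by 7.87% of windows. That window (chr10:27616943-27617192, minus strand) lies inside the gene as annotated in GENCODE M21, which runs to 27619758. Lamb2 had 3 CGs, while Lama5 and Lamb1 had 19 and 14.

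Some classes were found in the joint table alone and are given without a test. The 83 Schwann cells had Itga1 at 305 (243 to 378) CPM, Itgav at 254, Itga6 at 80.9, Itgb4 at 51.5 and Itga2 at 40.4, with Lama2 and Lamb1 at 29.4 each on 8 UMIs. The 14 duct cells had Itga6 at 102, Itgb6 at 64.4, Lama5 at 64.4, Itga3 at 60.6, Lamb2 at 53.0, Itgb4 at 37.9 and Lamb3 at 22.7, a set known from epithelia. The 75 B cells had Itgb2 at 47.4, Itgal at 37.9 and Itga4 at 28.4, and the 19 T or NK cells had Itgb7 at 266 (142 to 455) and Itga4 and Itgb2 at 143 each. Itgb7, the gut-homing partner of Itga4, was at 0 in the endocrine classes of both tables, and Itgae, its other known partner, reached 11.4 in duct cells on 3 UMIs and at most 6.34 elsewhere.

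The 686 acinar cells carried a median of 2699 insulin UMIs and had Itgav at 202 CPM, beside 188 in beta cells, so their levels were not compared. A cluster of 43 cells held all 10 endothelial and all 12 mural markers and was left out of both classes. It showed Lama3 at 145, Itga7 at 83.5 and Itga6 at 291, members of both sides. A further unnamed cluster of 45 cells, with all 10 endothelial markers but led by Aqp1, Lrg1 and Vwf, had Itga1 at 352, Lama4 at 123, Lama3 at 35.2 and Itga5 at 64.5. Itgad had at most 5 UMIs in any class, and Itga11 reached 5.86 CPM in stromal cells on 2 UMIs.

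The other proteins of the basement membrane followed the laminins. Of 7 listed (Nid1, Nid2, Hspg2, Agrn, Col4a1, Col4a2, Ntn4) all 7 were higher in endothelial than in endocrine cells by limma, and 6 of 7 in mural and in stromal cells (16.2%, 14.6% and 15.2% of all genes), with medians of 5.56, 2.95 and 4.66 beside −0.25, −0.36 and −0.37 over all genes. Hspg2, the heparan sulfate proteoglycan perlecan, was at 1056 and 943 CPM in endothelial and 34.8 and 27.4 in mural cells (log2 difference −4.80 ± 0.34, adjusted p = 9.1e-07). Col4a1, a chain of the collagen network of the membrane, was at 1949.7 and 2237 in endothelial and 1374 and 1238 in mural cells. Within the endocrine cells Col4a1 was at 41.0 and 53.1 in beta cells against 3.84 and 5.82 in alpha and 0 and 3.95 in delta cells, lower in both by −2.40 ± 0.41 and −2.95 ± 0.41 (adjusted p = 0.0033 and 8.8e-04). Ntn4, a netrin that binds laminin gamma chains, was higher in alpha than in beta cells (31.7 and 29.9 against 1.58 and 1.24, log2 difference 2.48 ± 0.49, adjusted p = 0.0082).

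Of 6 laminin receptors that are not integrins, 2 rose and 2 fell in endothelial cells against endocrine cells, where 16.2% of all genes rose and 27.4% fell. In mural cells 5 rose and in stromal cells 6, where 14.6% and 15.2% of all genes rose. In macrophages 1 rose and 3 fell, a split near that of all genes (12.3% and 43.2%). The list medians were 0.36, 1.80, 1.69 and −0.57 in the same order, beside −0.25, −0.36, −0.37 and −0.67 over all genes. Bcam, the Lutheran receptor of Lama5, was at 196 and 234 CPM in endothelial and 226 and 346 in mural cells. In delta cells Bcam was at 33.6 and 33.4 and in beta cells at 2.18 and 3.0 (2.35 ± 0.62, adjusted p = 0.047). Sdc2, a syndecan, rose in both alpha (1.37 ± 0.25, 0.0054) and delta cells (1.16 ± 0.25, 0.017) against beta cells, and Sdc3 fell in both (−1.70 ± 0.43, 0.033, and −2.01 ± 0.43, 0.015).

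Other integrin ligands had their own sources. Of 10 listed, 9 were tested, and the vitronectin gene Vtn was higher in mural than in endothelial cells (695.5 and 583 against 0 and 0.483 CPM, 6.94 ± 1.04, adjusted p = 4.5e-04). Icam2, a ligand of the leukocyte integrin Itgal with Itgb2, was at 284 and 429 in endothelial and 0 in mural cells (−6.15 ± 0.25, 1.1e-08). Npnt, the ligand of Itga8, was at 46.5 and 52.1 in beta cells and 6.72 and 3.74 in alpha cells (−2.42 ± 0.57, 0.023). It was at 94.6 and 64.1 in delta cells, while its receptor subunit Itga8 was at 0 in all of the endocrine classes. Fn1 was at 4273 and 1678 in stromal cells.

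Of the 14 adaptors that link integrins to actin, 9 rose and 1 fell in endothelial against endocrine cells (16.2% and 27.4% of all genes), 9 and 1 in mural (14.6% and 32.8%), 10 and 1 in stromal (15.2% and 29.2%) and 7 and 4 in macrophage cells (12.3% and 43.2%). The list medians were 1.71, 1.51, 0.93 and 0.17, beside −0.25, −0.36, −0.37 and −0.67 over all genes. Fermt1, the kindlin of epithelia, was at 33.6 and 36.0 CPM in delta cells, at 0 and 0.0281 in beta cells and at 0 in alpha and PP cells of both tables (delta against beta 2.99 ± 0.16, adjusted p = 1.9e-06). Fermt3, the kindlin of blood cells, was at 179 and 162 in macrophages (4.95 ± 0.20, 4.5e-09). Cd151, a tetraspanin that binds laminin receptors, rose in delta cells (52.6 and 45.2 against 17.2 and 14.8 in beta cells, 1.36 ± 0.26, 0.0082). In delta against beta cells 2 of the 14 rose and 0 fell (3.27% and 3.02% of all genes), and in alpha against beta cells 0 rose and 1, Tln2, fell (−1.38 ± 0.36, 0.041, beside 2.65% and 4.6%).

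Over the 7 comparisons each of the 29 members tested was called at least once, in 78 pairs of member and comparison. Between 6.29% and 55.5% of all genes were called per comparison. The share of all genes called at least once was not computed, so the count describes the set alone. In 75 of the 78 the difference had the same sign in both tables. The others were Lama2 and Itga8 in stromal and Lamc3 in mural cells, each at 0 or on the other side in library 1. The calls rest on the values of these same tables, so agreement in sign is favoured by the selection and does not support them. The same share over all called genes was not computed. All 37 symbols were found in the annotation (GENCODE M21, GRCm38), and 14 overlap another gene on their own strand, 3 of them a protein-coding one (Itga1, Itga10 and Itgam). Itga2, Itgae, Itgb6, Itgb7 and Lama1 were in both tables but under the filter of the fit.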

How the data were processed

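For replicate 1 the authors deposited raw UMI counts, made with Cell Ranger 3.2.0 per the submitters' processing notes. For replicates 2 and 3 the authors deposited 1 joint table of natural log values, in which each count was divided by the sum of its cell, multiplied by 10000 and raised by 1 before the log, made with Cell Ranger 5.0.0 and Seurat 4.0.0 per the same notes. Both tables are on the mm10 build, with cutadapt 2.5 and FastQC 0.11.8 named as well. The strand setting of the counting is not given in the sources used here. In the joint table, 100% of 35558086 nonzero values were whole UMIs within a tolerance of 0.001, so counts were recovered. Of its 16050 columns, 3008 under 1 barcode suffix repeated another suffix exactly and were dropped. Its 3 blocks could not be tied to replicates 2 and 3, so blocks give values and are not replicates. No deposited column of per-sample values was left unused (0 columns).

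Cells needed 500 genes, 1000 UMIs and at most 20% mitochondrial UMIs, a limit exceeded by 255 cells in the first table and by 0 in the joint one. Of 859 and 11449 cells past the filters, 6 and 377 with the highest Scrublet scores (0.8% per 1000 cells) were removed, since its own threshold marked 9, 3, 33 and 0 cells (library 1, then each block). Cells were clustered per table (scanpy 1.11.5, Python 3.11.15, 2000 variable genes without the members, 30 components, 15 neighbours, Leiden resolution 1). A hormone counted above 5 times its median in non-endocrine cells plus 5 UMIs (insulin 440 and 1465, Gcg 25 and 20, Sst 5 and 5, Ppy 10 and 10). Beta, alpha and delta cells had 1 of insulin, Gcg and Sst, with Ppy allowed beside any of these, and PP cells Ppy alone. The 96 and 846 other endocrine cells were set aside.

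Summed UMIs of 8 classes in 2 tables (16 columns) were scaled to 1000000 (CPM) outside hormone (Ins1, Ins2, Gcg, Sst, Ppy, Pyy, Iapp) and mitochondrial genes. Tests used limma 3.58.1 (R 4.3.3, trend) on log2 of this value plus 5, with the library as a block, for genes at 10 CPM or more in at least 2 columns and Benjamini-Hochberg adjusted p under 0.05. The fit was tested on simulated data. edgeR 4.0.16 and DESeq2 1.42.0 on the summed counts were alternatives. A member is named if called in a comparison or at 20 CPM in a class of both tables, and from the partner and adaptor lists at most the 6 largest calls per comparison were to be named. Members named beyond this (Itga2, Itgb6, Itgb7, Itgae, Itga11, Itgad, Lama1, Lamb3) are given to account for the members, of which 1 is counted but not reported by itself here. The members, lists and tests were chosen with earlier results of these data known.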

Additional observations from a re-analysis of the deposited data

How the results depend on the processing

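Each of the 78 member differences called was recomputed under the alternatives, and 48 passed the threshold under every alternative with a test that could be fitted. The largest loss was under DESeq2, with 58 kept and 20 no longer passing, followed by edgeR and by a pseudocount of 1 CPM with 6 each. Leaving out the library block kept 75 and lost 3. The 1 reversal was Lama2 in stromal against endocrine cells, at −0.37 with the Saa3-led stromal cluster alone and −0.20 without replicates 2 and 3. The number of members called between delta and beta cells (1) became 2 with no filter on low values (with Itgb6), 4 with CPM over all UMIs (with Itgb1, Itgb8 and Lamc1), 5 with edgeR and 2 with DESeq2. Between alpha and beta cells the number (0) became 1 with a pseudocount of 20 (Itgav), 1 with CPM over all UMIs (Itgb1), 1 with a stricter cell filter (Itgav), 3 with the Saa3-led stromal cluster alone, which changes the spread shared by all comparisons (Itgav at an adjusted p of 0.039, Itgb8 at 0.040 and Lama2 at 0.0012), and 6 each with edgeR and DESeq2 (Itga6, Itgav and Itgb8 lower, Lama2, Lama5 and Itgb3 higher). Of all genes, 917 of 15718 and then 3101, 2352 and 2102 of 12270 were called in these delta against beta settings, in the order given. The main fit called 772. For the alpha against beta settings they were 1217, 1539, 877, 873, 2768 and 2417 of 12236 to 12287 genes, beside 889 in the main fit. The other 5 comparisons stayed within 1.5 times their number of member calls. Scaling moved the split of calls over all genes: the higher share in macrophages went from 22.1% to 52.4% with CPM over all UMIs and 49.95% with columns centred on their median, in mural cells from 30.8% to 64.8% and 48.7%, in stromal cells from 34.2% to 72.8% and 51.3%, in endothelial cells from 37.2% to 71.3% in the first setting, in alpha against beta cells from 36.6% to 89.0% and 51.7% and in delta against beta cells from 51.9% to 95.7% in the first setting. No member call changed sign under either scaling. Classing endocrine cells by the share of a hormone left under 10 delta cells in library 1, so comparisons that use delta cells were not run in that setting. Leaving out a library leaves 1 column per class and gives values with no test. The replicate number could not be used to pair samples, since the joint table holds replicates 2 and 3 together. Library 1 limits the mural class (12 cells) and the PP class (13 cells), where genes under 52.2 and 21.8 CPM could go unseen.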
